A study of Mus musculus with 12 samples.

Results

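Eukaryotic initiation factor 3 (eIF3) is the largest of the translation initiation factors, a complex of many protein subunits that binds the small ribosomal subunit, recruits the initiator tRNA and the mRNA, and takes part in scanning for the start codon. Subunits a, b and c are part of the core of eIF3, but not all of it. Subunits e, k, l and m, like a and c, carry the PCI fold, and f and h carry the MPN fold, so that these subunits build a scaffold related in shape to the proteasome lid and the COP9 signalosome. Subunit d contacts the exit side of the mRNA channel and can bind the cap of some mRNAs. Some eIF3 subunits are often listed as products of terminal oligopyrimidine (TOP) mRNAs, whose 5′ end is a C followed by an unbroken run of pyrimidines, and which Larp1, an RNA-binding protein, binds at the cap.

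The genes described here were 10 eIF3 subunit genes, Eif3a, Eif3b, Eif3c, Eif3d, Eif3e, Eif3f, Eif3h, Eif3k, Eif3l and Eif3m, of 55073 annotated mouse genes with a listed transcript, 15002 of which reached 10 counts in all libraries and are called detected. They were chosen by name. Eif3e, Eif3f and Eif3h, which are often listed as TOP mRNAs, were compared with the other 7. All 10 were detected. The 4 remaining annotated subunit genes, Eif3g, Eif3i, Eif3j1 and Eif3j2, are given beside them.

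The study sequenced ribosomal RNA-depleted RNA of posterior cortex from male Larp1 KO mice (Nestin-Cre;Larp1-flox/flox) and male Larp1 WT mice, which carried Nestin-Cre as well, all C57BL/6J. Nestin-Cre recombines in the neural and glial progenitors of the brain, so that cells of other origin in the tissue, such as microglia, keep the floxed gene. The labels describe 12 samples, 6 for each genotype, as 3 replicates with 2 parts each, and give no age for the mice. The 6 files used here carry mouse numbers (678, 687, 688, 698, 700 and 703) that no label ties to a genotype, and no genotype was taken from the values, so every value below is that of a numbered library of unknown genotype. Cortex is inferred, since all labelled samples are cortex. In a bulk sample, fewer cells of a type and less RNA per cell cannot be told apart.

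Depth ran between 34689262 and 44463362 expected counts per library. Defining markers summed to 1542 to 2148 TPM for neurons (5 genes), 146 to 185 TPM for astrocytes (3 genes), 343 to 546 TPM for oligodendrocytes (3 genes), 38.0 to 56.6 TPM for microglia (3 genes), 5.48 to 9.59 TPM for endothelium (2 genes) and 1.43 to 18 TPM for blood (2 genes). None of these markers was at 0 in any library. TPM is a share of all RNA scaled by transcript length, and nuclear protein-coding genes took between 22.7% of it (mouse 700) and 28.8% (mouse 703). The neuronal marker sum was also lowest in mouse 700 and highest in mouse 703, and the part of this in the TPM of single genes was not tested. Counts scaled to a common library size by the trimmed mean of M values (TMM CPM) are therefore given beside TPM. Larp1 itself, the targeted gene, was listed at 19.96, 18.77, 6.28, 6.44, 17.48 and 7.32 TPM in mice 678, 687, 688, 698, 700 and 703. It was high in mice 678, 687 and 700 and low in the others, with no label to set this against.

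The annotated 5′ ends of the subunit mRNAs are shown first because a pyrimidine tract at the start is what defines a TOP mRNA. For each gene, the GENCODE M21 transcript with the highest median TPM was read on GRCm38, and positions were counted from 1 at its 5′ end. Each line holds 30 bases, with the longest run of pyrimidines that begins with a C in the first 50 bases in capitals where it is at least 7 bases long. The first lines are Eif3f, Eif3e and Eif3h, followed by Eif3k, Eif3c and Eif3m. Eif3b and Eif3a, whose main transcripts had none of that length, come last. The tracts of Eif3d (10 bases from base 37) and Eif3l (9 bases from base 49) are not shown.
Eif3f (bases 1 to 30): CTCTTTCTCggcaagatggcttctccggcc
Eif3e (bases 1 to 30): gaacaagcgCTCCTTTCCCCCggcaagatg
Eif3h (bases 31 to 60): cctcacgCTTCTCTTTCTTCCTgtctggct
Eif3k (bases 1 to 30): acaCCTCTCTTCCggtcctctagtgctaag
Eif3c (bases 1 to 30): aaCCTTTTCCTCTTCCggcgtcgtgcctgt
Eif3m (bases 25 to 54): acggcaccgCTCTCTTTTCCggtcggcgtg
Eif3b (bases 1 to 30): gcggccgagccgggtgagaagcagcgcggg
Eif3a (bases 1 to 30): ccggctgggcgcgggcatctgctggcgagg

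By its main transcript, Eif3f alone among the 10 began with the TOP motif, taken as a C at base 1 followed by at least 4 pyrimidines. Its start lies on the plus strand of chromosome 7, at 108934417, and its tract was 9 bases long. The motif was at the annotated start of 1 of the 3 genes Eif3e, Eif3f and Eif3h and 0 of the other 7, against 320 of 13631 detected protein-coding genes (2.35%). Eif3e, which starts on the minus strand of chromosome 15 at 43282719, had a 12-base tract that began at base 10. The tracts of Eif3e and Eif3f were both followed by the same bases, ggcaagatg, which end in the letters of a start codon. Eif3h, which starts on the minus strand of chromosome 15 at 51865523, had the longest of these tracts with 15 bases, but it began at base 38.

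Tracts away from the first base were common among the subunits. A tract of at least 7 bases began within the first 50 bases in all 3 of Eif3e, Eif3f and Eif3h and in 5 of the other 7, against 2904 of the 13631 genes (21.3%). The longest such tract began within the first 10 bases in Eif3e, Eif3f, Eif3c and Eif3k, against 700 of the 13631 genes (5.14%). A shorter tract nearer the start than the longest was not counted. Eif3k, which starts on the minus strand of chromosome 7 at 28981814, had a tract of 10 bases from base 4. Eif3c, starting on the same strand and chromosome at 126566411, had one of 14 bases from base 3. A second annotated transcript of Eif3m, starting on the minus strand of chromosome 2 at 105017043, opened with a 7-base tract. It was listed at 0 TPM in every library, while the main transcript, starting at 105017080, held the tract from base 34. Retained-intron transcripts of Eif3a, starting on the minus strand of chromosome 19 at 60790658, also opened with a 7-base tract. They had medians of 0.985 and 0.135 TPM, and the main transcript of Eif3a starts at 60790643. RefSeq windows on GRCm38.p6 were found for 8 of the 10 genes, without Eif3e and Eif3h. They placed the start of Eif3f 2 bases upstream of the GENCODE start, where the tract was 11 bases long. In the others no such tract began at the RefSeq start. That start lay 74 bases upstream of the GENCODE start in Eif3k and 45 bases downstream of it in Eif3c. Of 32851 RefSeq windows, 823 (2.51%) held the motif at the start. Annotated starts are not measured start sites, and a match is a description of the letters only.

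The mRNA levels of the 10 subunits differed from one another by a few fold. Eif3k, a small PCI subunit, had the highest median at 50.56 TPM (36.53 to 59.17), and it was above Eif3h in 6 of 6 libraries although the ranges overlapped. Eif3h had a median of 42.34 TPM and Eif3c, a core scaffold subunit, 40.28 TPM, and Eif3h was the higher of the pair in 3 of 6 libraries. Eif3c was above Eif3d, the next in order at a median of 21.82 TPM, in 6 of 6 libraries with no overlap of their ranges. The other 6 subunits had medians between 16.64 TPM (Eif3m) and 21.29 TPM (Eif3f). Neighbours among them changed places between libraries. TPM is corrected for transcript length, so levels can be compared between genes, but the order also depends on which transcripts are summed. By the main transcript alone, Eif3d had the lowest median of the 10 at 15.82 TPM, below Eif3m at 16.36 TPM, and Eif3c had 33.28 TPM.

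Eif3e, Eif3f and Eif3h, the subunits often listed as TOP mRNAs, varied together over the 6 libraries. Eif3e, a PCI subunit (chromosome 15, 43250058 to 43282719), had 24.68, 24.95, 14.53, 13.82, 19.93 and 17.92 TPM in mice 678, 687, 688, 698, 700 and 703. Eif3f, an MPN subunit (chromosome 7, 108934417 to 108942951), had 28.07, 25.10, 15.03, 16.89, 23.28 and 19.30 TPM in the same order of mice. Eif3h, the other MPN subunit (chromosome 15, 51786558 to 51865523), had 51.78, 49.81, 28.89, 29.77, 46.43 and 38.26 TPM. In each of these genes mice 678, 687 and 700 had the highest levels, and mice 688 and 698 the lowest. The highest-to-lowest ratio over the libraries was 1.81 for Eif3e, 1.87 for Eif3f and 1.79 for Eif3h, against a median of 1.49 over all detected genes. On TMM CPM the ratios were 1.89 for Eif3e, 1.89 for Eif3f and 1.86 for Eif3h, against a median of 1.31.

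**Figure D1:**
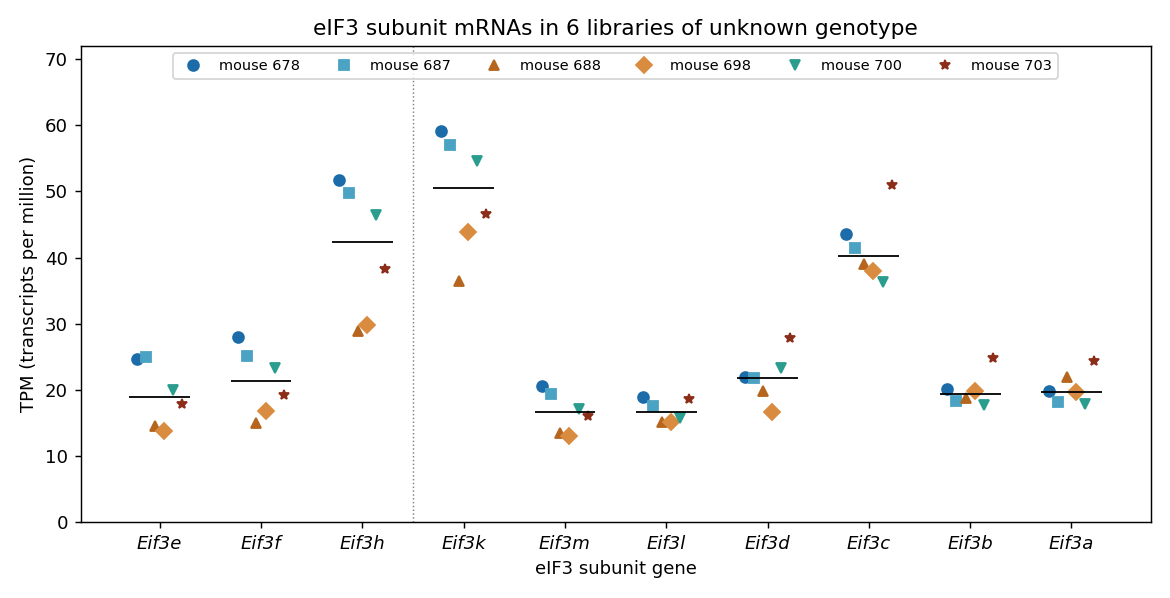
TPM (y axis) of each eIF3 subunit gene (x axis) in 6 libraries of unknown genotype, 1 symbol per mouse, with Eif3e, Eif3f and Eif3h left of the dotted line and the other 7 subunits right of it. Horizontal bars are medians. Mice 678, 687 and 700 lie above the others in Eif3e, Eif3f and Eif3h, while mouse 703 is the highest in Eif3a, Eif3b, Eif3c and Eif3d.

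Among the other 7 subunits, the PCI proteins Eif3k and Eif3m were high in the same libraries. Eif3k (chromosome 7, 28971372 to 28981864) had 59.17, 57.02, 36.53, 43.84, 54.57 and 46.55 TPM in mice 678, 687, 688, 698, 700 and 703, a highest-to-lowest ratio of 1.62. Eif3m (chromosome 2, 104999656 to 105017080) had 20.58, 19.33, 13.46, 13.10, 17.17 and 16.11 TPM, a ratio of 1.57. Mice 678, 687 and 700 were again above the other libraries in both. On TMM CPM the ratios of these genes were 1.73 for Eif3k and 1.63 for Eif3m.

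Eif3a, Eif3b and Eif3c did not share this order. Eif3a (chromosome 19, 60761117 to 60790658), the largest scaffold subunit, had 19.83, 18.22, 22.02, 19.69, 17.86 and 24.39 TPM in mice 678, 687, 688, 698, 700 and 703. Eif3b (chromosome 5, 140419328 to 140443360), which binds the small ribosomal subunit through its propeller domain, had 20.14, 18.29, 18.85, 19.88, 17.75 and 24.84 TPM. Eif3c (chromosome 7, 126546455 to 126566411) had 43.62, 41.48, 39.07, 37.96, 36.33 and 51.00 TPM. Mouse 703 was the highest and mouse 700 the lowest library in all 3 genes. These are also the libraries with the highest and lowest protein-coding share of TPM. On TMM CPM the highest-to-lowest ratios were 1.18 for Eif3a, 1.11 for Eif3b and 1.18 for Eif3c, below the median of 1.31 over all detected genes. That median also covers genes with far fewer counts, and a comparison with genes of like mean is given further below.

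Eif3l and Eif3d lay between these patterns. Eif3l (chromosome 15, 79075179 to 79094405), which pairs with Eif3k at the edge of the complex, had 18.95, 17.64, 15.13, 15.12, 15.72 and 18.68 TPM in mice 678, 687, 688, 698, 700 and 703, the smallest ratio of the 10 on TPM at 1.25. On TMM CPM its ratio was 1.29, with mice 678, 687 and 700 above the others. Eif3d (chromosome 15, 77958998 to 77970813) had 21.90, 21.75, 19.83, 16.67, 23.29 and 27.87 TPM, a ratio of 1.67 on TPM and of 1.25 on TMM CPM. Its main transcript held between 64.9% and 92.1% of the gene's TPM, and a retained-intron transcript of 248 bases was listed at 0.82 to 7.14 TPM. Taken alone, the main transcript of Eif3d had a highest-to-lowest ratio of 1.31. In Eif3e, Eif3f and Eif3h the main transcript held medians of 97.7%, 92.2% and 99.3% of the gene's TPM.

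Ratios within a library do not depend on the scale between libraries, and were taken to the summed TPM of Eif3a, Eif3b and Eif3c. The ratio of Eif3e was 0.295, 0.320, 0.182, 0.178, 0.277 and 0.179 in mice 678, 687, 688, 698, 700 and 703. That of Eif3f was 0.336, 0.322, 0.188, 0.218, 0.324 and 0.193. Eif3h gave 0.619, 0.639, 0.361, 0.384, 0.645 and 0.382. Mice 678, 687 and 700 were therefore high and mice 688, 698 and 703 low, with no overlap, in each of the 3 genes, and the ratio of highest to lowest was 1.79 in each. The same figure was 1.66 for Eif3k and 1.54 for Eif3m, with the same libraries high, and 1.22 for Eif3l. Eif3d gave 1.51, with mouse 700 highest at 0.324 and mouse 698 lowest at 0.215.

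**Figure D2:**
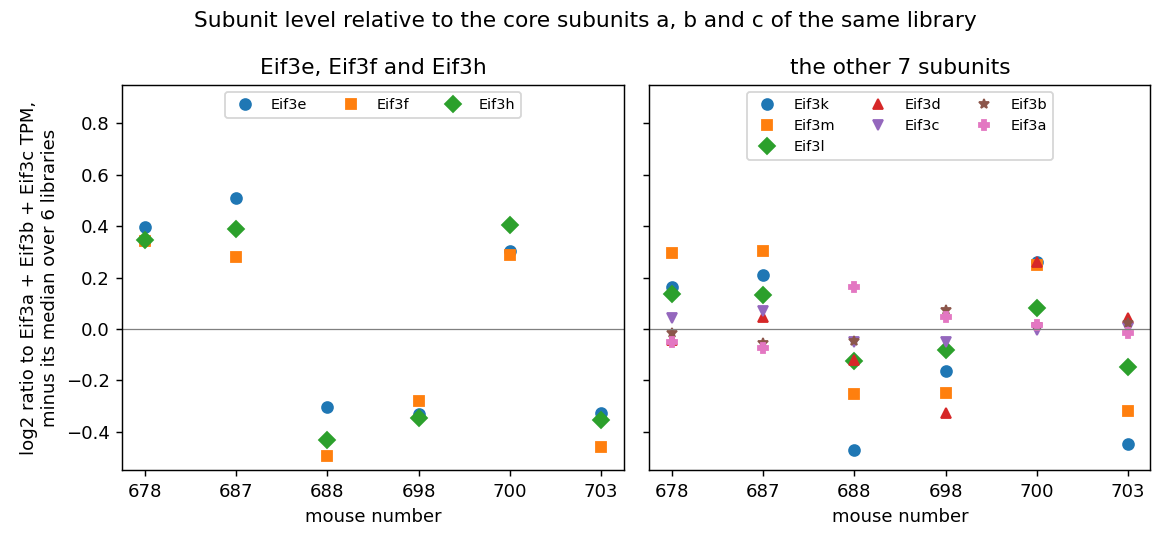
Log2 ratio of each subunit's TPM to the summed TPM of Eif3a, Eif3b and Eif3c in the same library, minus its median over the 6 libraries (y axis), by mouse number (x axis), for Eif3e, Eif3f and Eif3h (left) and the other 7 subunits (right). Eif3e, Eif3f and Eif3h lie above 0 in mice 678, 687 and 700 and below 0 in mice 688, 698 and 703, as do Eif3k, Eif3m and Eif3l.

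As a share of the summed TPM of the 10 subunits, Eif3e, Eif3f and Eif3h together made up 33.9%, 34.0%, 26.2%, 26.7%, 32.9% and 26.5% in mice 678, 687, 688, 698, 700 and 703, a highest-to-lowest ratio of 1.30. In expected counts the shares were 27.9% (95% Wilson interval 27.3 to 28.5), 28.4% (27.8 to 29.0), 19.1% (18.5 to 19.6), 20.5% (19.9 to 21.1), 27.4% (26.9 to 28.1) and 19.9% (19.3 to 20.5). The intervals of mice 678, 687 and 700 did not overlap those of the other libraries, and they cover counting error only. The summed TPM of Eif3e, Eif3f and Eif3h had a highest-to-lowest ratio of 1.79 (58.45 to 104.53 TPM), against 1.27 for the other 7 (164.89 to 209.44 TPM). The 10 subunits together took 0.0223% to 0.0309% of all TPM, with a median of 0.0279%.

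The subunits were then compared in pairs by the SD over the 6 libraries of the log2 ratio of their TPM, in which a small SD means a nearly constant ratio. The 3 pairs within Eif3e, Eif3f and Eif3h had SDs of 0.07 to 0.11, with a median of 0.08. The 21 pairs within the other 7 subunits had SDs of 0.08 to 0.39, with a median of 0.21. Across the 2 sets, 21 pairs had SDs of 0.10 to 0.48, with a median of 0.33. Eif3k (0.10 to 0.17) and Eif3m (0.11 to 0.12) kept the most constant ratio to Eif3e, Eif3f and Eif3h among the other subunits, and Eif3a (0.46 to 0.48) the least. The pairs within Eif3a, Eif3b and Eif3c had SDs of 0.08 to 0.13. All pairs share the same 6 libraries, and no test was made on them.

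**Figure D3:**
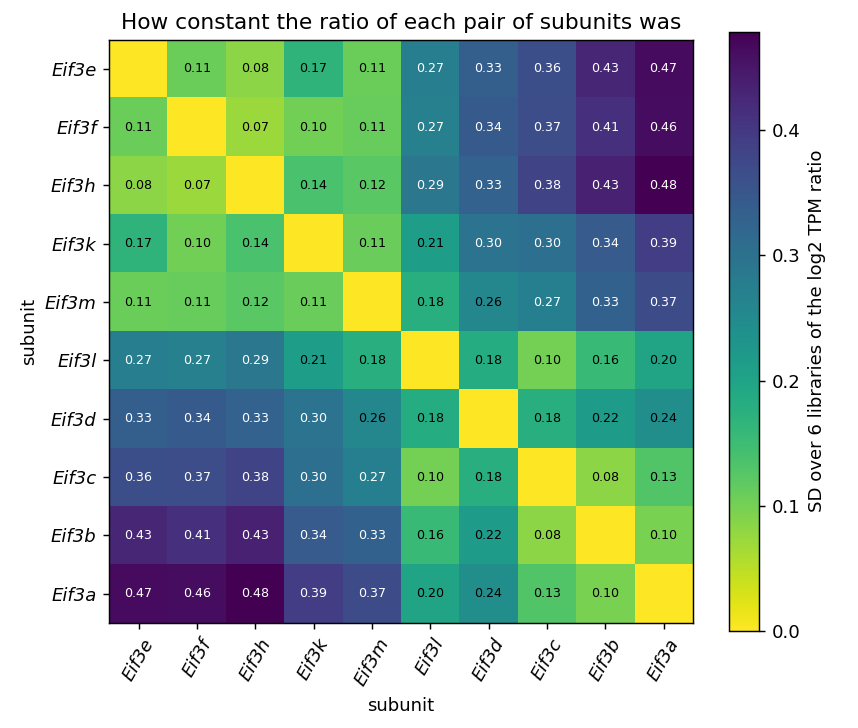
SD over 6 libraries of the log2 TPM ratio for each pair of eIF3 subunit genes (rows and columns), with light colours for pairs of nearly constant ratio. Eif3e, Eif3f, Eif3h, Eif3k and Eif3m form a block of SDs up to 0.17, and Eif3a, Eif3b and Eif3c another of up to 0.13.

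To place the subunits among all genes, excess variability was taken as how far the SD of log2(CPM + 1) over the 6 libraries lay above a running median over genes of like mean, and the highest 5% of the 15002 detected genes (750 genes) were called most variable. Eif3h (0.33, rank 310), Eif3f (0.30, rank 355) and Eif3e (0.30, rank 356) were all among them, which makes 3 of 3. Of the other 7 subunits, 2 were, Eif3k (0.22, rank 618) and Eif3m (0.20, rank 709). Eif3k and Eif3m lay near the threshold of 0.19, and neither was called with a pseudocount of 0.25 or on log2(TPM + 1). Eif3l had an excess of 0.05, Eif3d 0.02, Eif3a -0.01, Eif3c -0.01 and Eif3b -0.04. The lowest count of a subunit in any library was 499, in Eif3m, for a counting error of 4.48%.

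**Figure D4:**
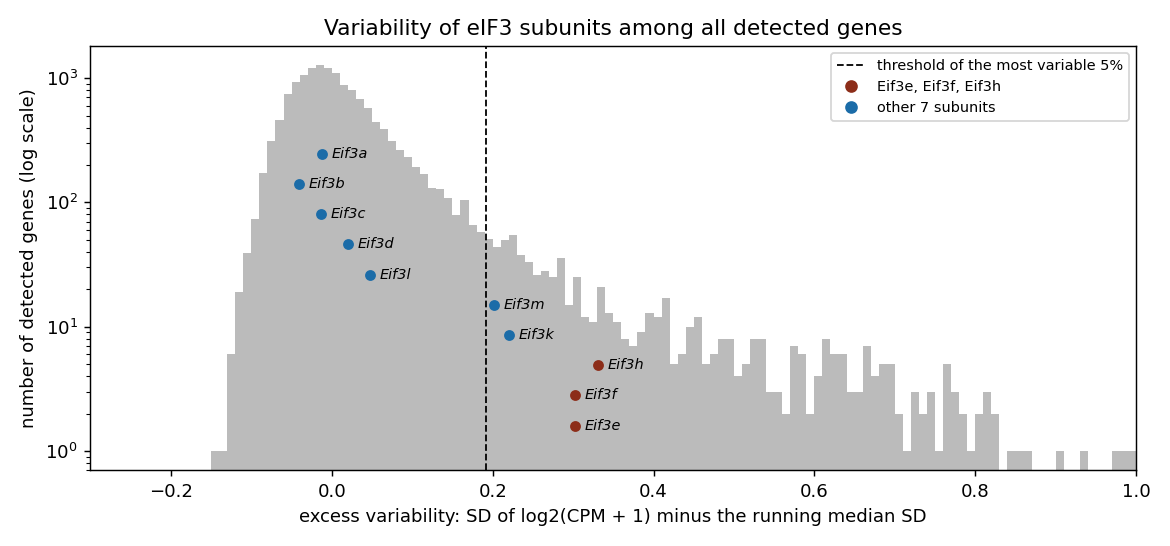
Number of detected genes (y axis, log scale) by excess variability in log2(CPM + 1), above that of genes of like mean (x axis), in grey, with the 10 eIF3 subunits as points whose height has no meaning. Eif3e, Eif3f, Eif3h, Eif3k and Eif3m lie right of the dashed threshold of 0.19, and 6 genes beyond 1.0 are not drawn.

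The 4 further subunit genes were not among the most variable, and a count of 0 in so short a list is near the 5% over all detected genes. Eif3g, which with Eif3i and Eif3b forms a module of eIF3 that moves during scanning, had 38.34, 31.21, 24.36, 26.78, 31.58 and 31.22 TPM in mice 678, 687, 688, 698, 700 and 703, with an excess of 0.16. Eif3i had 34.90, 34.72, 26.63, 29.22, 31.47 and 34.25 TPM, with an excess of 0.08. On TMM CPM the highest-to-lowest ratio was 1.57 for Eif3g and 1.35 for Eif3i, with mice 678, 687 and 700 above the others in both genes. Eif3g had 35.7, 29.9 and 34.1 CPM in these mice, against 22.7, 24.3 and 25.1 CPM in mice 688, 698 and 703. Eif3i had 32.2, 33.2 and 33.1 CPM, against 24.5, 26.3 and 27.5 CPM. This order was not seen in Eif3j1 or Eif3j2. Eif3j1, a loosely bound subunit, had 5.25 to 7.36 TPM and a CPM ratio of 1.12. Eif3j2, a near-identical copy, had 17 to 59 counts per library, a CPM ratio of 3.02 and an excess of 0.14. The split of reads between the copies is uncertain. Eif3e has 4 annotated pseudogenes, none of which was above 0.09 TPM in any library.

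Other initiation factors and related complexes gave a frame for these values. Of the 10 genes listed for factors that work with eIF3 in scanning and subunit joining, 0 were among the most variable. The share over all detected genes was 5%, and a count of 0 in lists of this size is near it. The median CPM ratio of the 10 was 1.21. Eif2s3x had the highest, 1.55, with an excess of 0.17. It had 83.9, 77.4 and 79.7 CPM in mice 678, 687 and 700, against 58.8, 54.2 and 57.4 CPM in mice 688, 698 and 703. The TPM ratios of the 10 ran between 1.19 in Eif5b, which joins the ribosomal subunits, and 1.87 in Eif2s1, the alpha subunit of eIF2. On TMM CPM the ratio of Eif2s1 was 1.28, below the median of 1.31 over all detected genes. Of the 8 eIF4 genes 1 was called, Eif4b, a helper of the helicase eIF4A, with a TPM ratio of 1.72. The cap-binding protein Eif4e had the lowest TPM ratio at 1.25. Eif4b had 160, 146 and 154 CPM in mice 678, 687 and 700, against 100, 105 and 111 CPM in mice 688, 698 and 703. The median CPM ratio of the 8 genes was 1.20. Of the complexes built on the same folds as eIF3, the COP9 signalosome had 0 of 9 called and TPM ratios of 1.31 (Cops3) to 1.45 (Cops7b). Its median CPM ratio was 1.17, and Cops6 had the highest, 1.37, with an excess of 0.10. Cops6 had 42.1, 41.1 and 42.8 CPM in mice 678, 687 and 700, against 31.2, 32.9 and 33.5 CPM in mice 688, 698 and 703. The proteasome lid had 0 of 8 called and TPM ratios of 1.32 (Psmd13) to 1.52 (Psmd8). Of the 79 cytosolic ribosomal protein genes, the main family of TOP mRNAs, 78 were called (98.7%), with a median CPM ratio of 2.5, larger than that of any of the 10 eIF3 subunits. Their TPM ratios ran between 1.5 in Rpl41 and 3.50 in Rps23.

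The genes whose TPM kept the most constant ratio to the summed TPM of Eif3e, Eif3f and Eif3h were found by the SD of the log2 ratio over the 6 libraries, among 14994 genes. The nearest was Eef1a1, the elongation factor that brings aminoacyl-tRNA to the ribosome, with an SD of 0.04. Its TPM was 766.9, 761.8, 404.4, 440.9, 652.0 and 549.3 in mice 678, 687, 688, 698, 700 and 703, with mice 678, 687 and 700 highest and mice 688 and 698 lowest, as in Eif3e. After it came the ribosomal proteins Rpl29 (0.05), Rpl7a (0.06), Rpl15 (0.06), Rpl6 (0.07), Rpl28 (0.08) and Rpl27 (0.08). The others of the nearest 10 were Rack1, a protein of the small ribosomal subunit (0.06), Nsa2, a factor of large subunit assembly (0.08), and Ndufb10, a Complex I subunit (0.08). Ribosomal protein genes made up 20 of the nearest 50 (40%), against 79 of the 14994 genes ranked (0.527%). Eif3m was in place 23, Eif3k in place 34, Eif3g in place 94 and Eif3i in place 283. Eif3c was in place 2463, Eif3b in place 5364, Eif3j1 in place 5775 and Eif3a in place 8443.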

How the data were processed

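The authors removed adapters with cutadapt and used STAR (mm10) and RSEM, with versions not given in the sources used here. For extraction and libraries, the labels name TRIzol and a directional kit and the sequencing methods RNEasy columns and NEBNext Ultra II, while the reagents listed in the methods include both extraction products and name the kit as directional. The authors deposited expected counts per transcript, not normalized, and TPM for the same 142351 transcripts. A further 18 value columns were not used.

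Transcript identifiers, with versions dropped, were looked up in GENCODE M21 (99.36% matched). Values were summed per gene, and counts were rounded after summing. Counts were scaled by TMM (edgeR 4.0.16, R 4.3.3). No pair of libraries was alike within counting noise (chi-square per degree of freedom 14.8 to 67.4). Larp1 KO was not compared with Larp1 WT, because no column could be matched to a labelled sample. The alternatives were DESeq2 1.42.0 size factors, other pseudocounts, filters, units, denominators and motif definitions, and each library left out, plus 1 scaling added after seeing the data. The scripts were tested on simulated data.

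The members and lists were chosen with earlier results of these data known. The genes named are all subunits, from each list those with the highest and the lowest highest-to-lowest TPM ratio, and the 10 genes most like the summed TPM of Eif3e, Eif3f and Eif3h. Eif2s3x and Cops6 are named as well, for the highest TMM CPM ratios of their lists. Defining markers of 6 cell types were also listed.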

Additional observations from a re-analysis of the deposited data

Results flagged for a closer look

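Of 40 quantities checked with Dixon's ratio at its 95% limit for 6 values, 2 had 1 library far from the others, both in Eif3b and both in mouse 703, and chance gives about 1 in 20. Eif3b had 24.84 TPM in mouse 703, against 17.75 to 20.14 TPM in the other 5 libraries. The main transcript of Eif3b held 92.5% of the gene's TPM in mouse 703, against 97.3% to 100% in the others. On TMM CPM, Eif3b had 56.4 CPM in mouse 703, against 51.4 to 57.3 CPM in the others.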

How the results depend on the processing

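Eif3e, Eif3f and Eif3h were among the most variable genes under every alternative run. Of the other 7 subunits, 2 were called, the same genes, with DESeq2 size factors and with no count minimum, but 0 with a pseudocount of 0.25, on log2(TPM + 1), and with TPM rescaled over nuclear protein-coding genes, which was added after seeing the data. Without 1 library, 1 to 2 were called: Eif3m was lost without mouse 678, 687 or 698, and Eif3k without mouse 688. The highest-to-lowest ratio of the share of Eif3e, Eif3f and Eif3h was 1.30, but 1.49 in expected counts and 1.22 with geometric means. Without 1 library it was 1.28 to 1.30. The median TPM ratio of the other 7 subunits was 1.40, but 1.25 on TMM CPM and 1.23 with rescaled TPM. Without 1 library it was 1.25 (mouse 703 left out) to 1.40. The 10 subunits took 0.0279% of TPM, but 0.0506% of expected counts and 0.109% of protein-coding TPM. The TOP motif was at the start of 1 subunit, but of 3 with any annotated transcript (Eif3f, Eif3a, Eif3m), against 10.7% of detected protein-coding genes, and of 3 within 5 bases (Eif3f, Eif3c, Eif3k), against 10.8%. Ribosomal protein genes among the nearest 50 numbered 20, and 13 (mouse 698 left out) to 20 without 1 library. For single subunits, 9 of 30 ratios in other units or by main transcript moved beyond counting error, all 9 to lower values. Of the 60 with a library left out 9 moved, and leaving out a library can only lower or keep such a ratio. Other causes were not tested. No paired analysis was possible because no column carries a replicate number.

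The main limits are that the genotype of each library is unknown, that the tissue is inferred, and that 6 libraries give a range but no test. TPM depends on the share taken by other RNAs, and annotated starts can differ from those used in the tissue.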

Other observations

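For each subunit, the widest gap between libraries next to each other in level was set against the spread of the libraries above and below it, all in log2. On TMM CPM the gap was the wider in 7 of the 10 subunits, against 40.5% of the 15002 detected genes. On TPM it was the wider in 3 of the 10, Eif3a, Eif3b and Eif3l, against 38.9% of 14997 genes, and in none of Eif3e, Eif3f and Eif3h. Within a library, relative to the summed TPM of Eif3a, Eif3b and Eif3c, it was the wider in 6 of the 7 remaining subunits. Eif3d was the exception. The share over all genes was not taken on this measure, so this count has no background beside it. On TMM CPM the gap in Eif3e was 0.58, between mouse 700 (30.9 CPM) and mouse 703 (20.7 CPM), with 33.2 CPM in mouse 678, 34.2 in mouse 687, 19.4 in mouse 688 and 18.1 in mouse 698. In Eif3f the gap was 0.62, with 62.2, 57.9 and 58.7 CPM in mice 678, 687 and 700 above it and 33.0, 37.8 and 36.7 CPM in mice 688, 698 and 703 below it. In Eif3h it was 0.64, with 59.1, 58.5 and 60.7 CPM in mice 678, 687 and 700 above it and 32.7, 32.7 and 37.5 CPM in mice 688, 698 and 703 below it. Eif3k, Eif3m and Eif3l had mice 678, 687 and 700 above a gap of 0.45, 0.52 and 0.17, while Eif3d had mouse 703 above it as well (0.15). In Eif3a, Eif3b and Eif3c no gap on TMM CPM was wider than the spread on both sides. The libraries described as high or low were read from these same values, and no test was made between them.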
